A study of Mus musculus with 24 samples.

Results

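The genes of the nuclear factor kappa B (NF-kappa B) transcription factors and of the inhibitor of kappa B (IkB) proteins were examined in RNA-Seq data from the distal part of the mouse small intestine (ileum). The 10 genes were taken by symbol from the deposited table of 55536 genes and comprised the subunits *Rela*, *Rel* and *Relb*, the precursor subunits *Nfkb1* and *Nfkb2*, the classical inhibitors *Nfkbia*, *Nfkbib* and *Nfkbie*, and the atypical IkB genes *Bcl3* and *Nfkbiz*. All 10 were among the 14076 genes that passed the filter on low counts. The data came from 24 C57BL/6N mice, with no genetic change named in the labels, in 4 groups of 6 (3 males and 3 females): control diet with 10 kcal percent fat (CD), the same diet with metformin at 50 mg/kg body mass/day (CDmetf), high-fat diet with 60 kcal percent fat (HFD) and high-fat diet with metformin at the same dose (HFDmetf). Each diet had been fed for 20 weeks before metformin was given in the drinking water for 10 weeks, and 1 animal per cage was sequenced. The tissue was whole intestine, so that every value is an average over epithelium, muscle, stroma and immune cells, and in such samples fewer cells of a type and less RNA per cell cannot be told apart. The labels call the HFD and HFDmetf animals obese. Their age was not given in the labels.

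NF-kappa B proteins act as dimers that are held in the cytoplasm by IkB proteins and enter the nucleus once a signal from a cytokine, antigen or microbial receptor leads to the degradation or processing of the inhibitor. The canonical arm releases dimers of Rela or Rel with the product of *Nfkb1*, whereas the non-canonical arm releases Relb with the processed product of *Nfkb2*. In the intestine the pathway is known from the epithelial response to bacteria, and in B cells, which gather in the lymphoid follicles of the ileum, Rel and the non-canonical arm serve activation and survival.

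Between 1829690 and 40606442 reads per library were assigned to genes (median 3467307.5). Expression is given as CPM, the read count relative to library size after trimmed-mean scaling. In the library CD M3, 10 genes took 85.4% of the counts, and in HFDmetf F2, the library with the fewest reads, the top 10 took 36.6%. CD M3 was the lowest CD library for *Rel*, *Relb*, *Nfkb1* and *Nfkbie* and the highest for *Rela* and *Bcl3*. HFDmetf F2 was the lowest HFDmetf library for *Rel* and *Relb*. The library labelled HFD M2 held 3355 reads of *Xist*, which female cells transcribe, and 0 reads of Y-linked genes, whereas the library labelled HFD F2 held 1 and 423, so that both went against the labelled sex. A further 5 libraries (CD F3, CDmetf M3, CDmetf F3, HFD F3 and HFDmetf F3), all with replicate number 3, stood apart from the other 19 on the second principal component of all genes. The summed level of 14 B-cell markers was 17.4 to 109.7 CPM in CD, 24.1 to 559 CPM in CDmetf, 25.1 to 455 CPM in HFD and 16.7 to 52.9 CPM in HFDmetf, and no marker of the list was at 0 in all libraries. That of 9 epithelial markers was 14977 to 27757 CPM over the 24 libraries. The 3 markers of the ileal epithelium summed to between 5.72 CPM (HFD M3) and 3653 CPM (CD M2), so that the labelled segment was not equally marked in all libraries.

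All 10 genes were detected in every library. Per kilobase of exon sequence, the median level was highest for *Nfkbia* (36.9 CPM per kb, range 22.8 to 58.5), followed by *Relb* (18.3), *Rela* (13.7), *Bcl3* (12.4), *Nfkbib* (10.1), *Nfkbiz* (9.87), *Nfkb2* (8.53), *Nfkb1* (7.93), *Rel* (3.70) and *Nfkbie* (1.81 CPM per kb, range 0.698 to 4.48). The ranges of each pair of neighbours in this order overlapped across the 24 libraries. Variation between libraries, as the standard deviation of log2 CPM, was lowest for *Nfkb1* (0.19) and highest for *Bcl3* (0.70), *Nfkbie* (0.65) and *Nfkbib* (0.52), beside a median of 0.36 over 8650 genes of like mean level. *Nfkbie* rested on 5 to 509 reads per library, the least of the 10.

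Of the subunits that carry a transactivation domain, *Rela* (ENSMUSG00000024927, chr19:5637483-5648130, plus strand of GRCm38), the main partner of the canonical dimer, was 24.4, 39.6 and 45.4 CPM in CD, 29.3, 50.4 and 53.6 CPM in CDmetf, 26.4, 43.6 and 45.5 CPM in HFD and 26.6, 40.3 and 50.8 CPM in HFDmetf (lowest, median and highest of 6 libraries). *Rel* (ENSMUSG00000020275, chr11:23736847-23770970, minus strand), a subunit used mostly by lymphoid cells, was 18.2, 26.3 and 36.5 CPM in CD, 29.3, 33.4 and 51.2 CPM in CDmetf, 24.1, 29.7 and 39.1 CPM in HFD and 15.4, 24.2 and 33.6 CPM in HFDmetf. The 6 CDmetf libraries were all at or above 29.3 CPM, a level that 5 of the 6 CD libraries and 5 of the 6 HFDmetf libraries did not reach, although all pairs of groups overlapped. *Relb* (ENSMUSG00000002983, chr7:19606217-19629438, minus strand), the subunit of the non-canonical arm, was 43.9, 77.5 and 85.6 CPM in CD, 58.3, 68.5 and 113 CPM in CDmetf, 52.3, 74.6 and 92.4 CPM in HFD and 41.5, 58.9 and 85.9 CPM in HFDmetf, and its highest value was in CDmetf M1.

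The precursor genes encode long proteins that are cut to the short DNA-binding subunits. *Nfkb1* (ENSMUSG00000028163, chr3:135584655-135691547, minus strand) was 67.8, 98.5 and 108 CPM in CD, 84.2, 95 and 111 CPM in CDmetf, 75.8, 95.9 and 107 CPM in HFD and 72.2, 90.3 and 104 CPM in HFDmetf, and it was the most even of the 10 genes. *Nfkb2* (ENSMUSG00000025225, chr19:46304320-46312385, plus strand) was 28.5, 38.6 and 41.5 CPM in CD, 27.0, 48.4 and 55.7 CPM in CDmetf, 24.4, 42.3 and 59.3 CPM in HFD and 23.8, 31.1 and 46.8 CPM in HFDmetf. In HFD, 3 libraries lay above the highest CD library and the other 3 did not, and the library labelled HFD M2 was the highest of all 24.

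Among the classical inhibitors, *Nfkbia* (ENSMUSG00000021025, chr12:55489410-55492647, minus strand), which is itself induced by NF-kappa B and restrains it in a feedback loop, was 46.9, 64.6 and 73.9 CPM in CD, 52.7, 69.5 and 76.8 CPM in CDmetf, 36.8, 63.9 and 94.2 CPM in HFD and 44.3, 47.6 and 58.7 CPM in HFDmetf. The HFDmetf libraries were the closest together, whereas the HFD libraries held both the lowest and the highest value of all 24. *Nfkbib* (ENSMUSG00000030595, chr7:28758251-28767512, minus strand) was 13, 22.5 and 29.5 CPM in CD, 13.9, 24.5 and 33.7 CPM in CDmetf, 10.9, 27.6 and 42.4 CPM in HFD and 13.4, 16.9 and 30.5 CPM in HFDmetf. *Nfkbie* (ENSMUSG00000023947, chr17:45555703-45563169, plus strand), an inhibitor that is best known from lymphoid cells, was 2.13, 4.32 and 6.66 CPM in CD, 4.44, 6.52 and 13.6 CPM in CDmetf, 2.14, 5.49 and 12 CPM in HFD and 3.95, 5.67 and 7.80 CPM in HFDmetf. The highest values of *Nfkbie* came from 3 libraries (CDmetf F2, HFD F1 and the library labelled HFD M2), and the group medians lay closer together than the group means.

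The atypical IkB proteins act in the nucleus, where they bind dimers of the short subunits and modulate transcription. *Bcl3* (ENSMUSG00000053175, chr7:19808462-19822770, minus strand) was 16.3, 29.4 and 50.6 CPM in CD, 12.3, 30.2 and 42.1 CPM in CDmetf, 10.4, 36.5 and 55.0 CPM in HFD and 10.8, 30.6 and 74.4 CPM in HFDmetf. Its lowest value in each group was a library of the 5 that stand apart. *Nfkbiz* (ENSMUSG00000035356, chr16:55811375-55838899, minus strand) was 48.7, 53.4 and 68.0 CPM in CD, 24.7, 51.8 and 73.5 CPM in CDmetf, 34.4, 56.6 and 71.1 CPM in HFD and 30.7, 40.7 and 49.8 CPM in HFDmetf, with the highest spread in CDmetf. Annotated genes on the opposite strand overlap *Nfkb2* (*Psd*), *Nfkbib* (*Ccer2*, *Sirt2*) and *Bcl3*, and 1 gene on the same strand overlaps *Nfkb1*, and counts of these 4 genes are uncertain because the strand setting of the counting was not given in the sources used here.

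**Figure D1:**
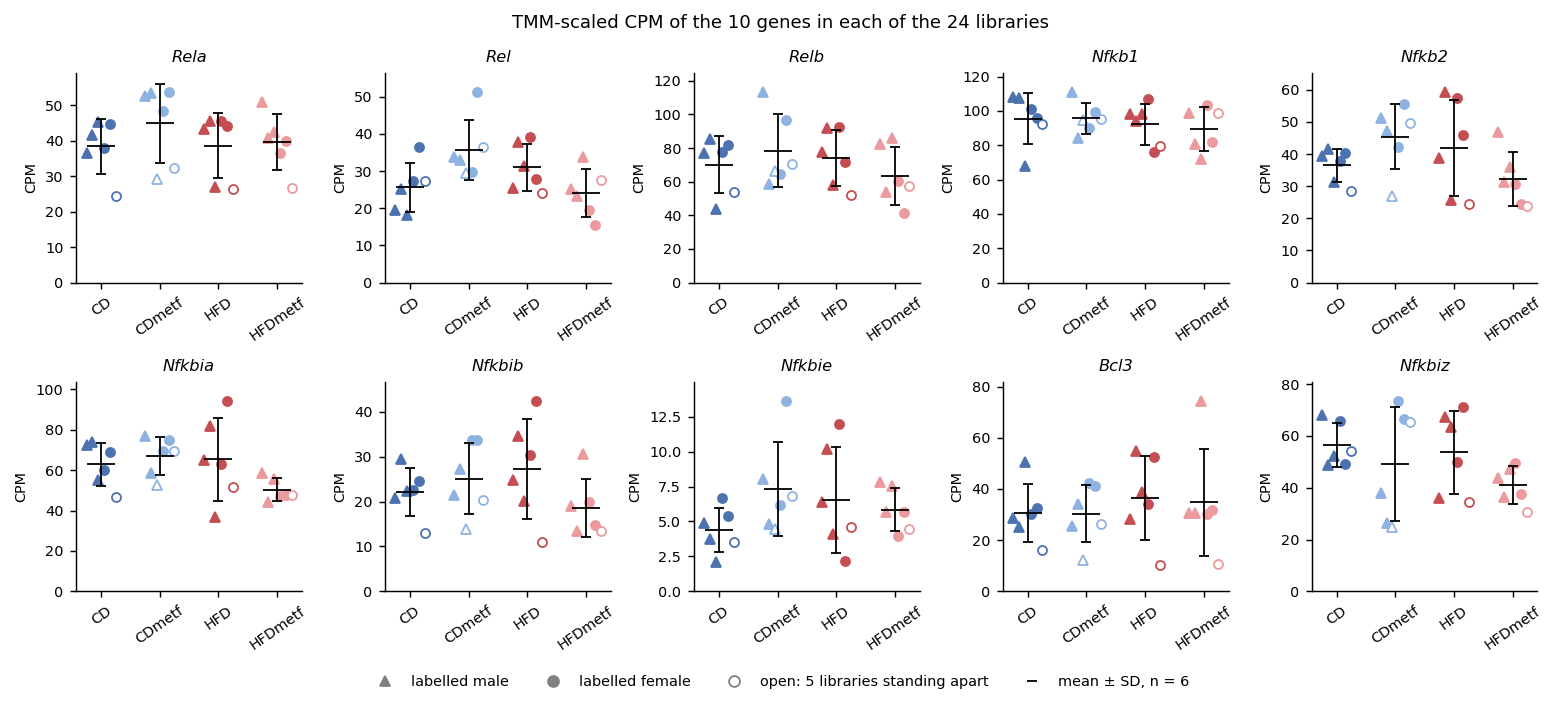
CPM of each gene (vertical axis, from 0) by group, 1 point per library (triangles labelled male, circles labelled female, open symbols for the 5 libraries that stand apart), with the mean and SD of 6 libraries in black. The groups overlap in each panel, and the open symbols lie low for *Rela*, *Nfkbib* and *Bcl3* but not for *Rel* or *Nfkb1*.

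Because several of these genes are themselves known targets of NF-kappa B, the promoter windows of RefSeq (GRCm38.p6, 250 bases before to 50 bases after the start) were searched on both strands for the 10-base kappa B consensus. Windows were listed for 7 of the 10 genes (*Rela*, *Rel*, *Nfkb2*, *Nfkbia*, *Nfkbib*, *Nfkbie* and *Bcl3*), and 5 of the 7 held at least 1 match (*Rel*, *Nfkb2*, *Nfkbia*, *Nfkbie* and *Bcl3*), beside 5.14% of all 27025 genes with a window (4.51% of all 32851 windows). In *Bcl3* the match lay after the start. The 250 upstream bases of the other 4 are printed 5′ to 3′ along the gene, with the matches in capitals. They are shown because the results that follow turn on these members, and a match is a feature of the letters only. In *Rel* and *Nfkb2* matches overlapped on the 2 strands, and of the 3 windows listed for *Nfkb2* the first is printed.
Nfkbie, chr17:45555450-45555699, plus strand: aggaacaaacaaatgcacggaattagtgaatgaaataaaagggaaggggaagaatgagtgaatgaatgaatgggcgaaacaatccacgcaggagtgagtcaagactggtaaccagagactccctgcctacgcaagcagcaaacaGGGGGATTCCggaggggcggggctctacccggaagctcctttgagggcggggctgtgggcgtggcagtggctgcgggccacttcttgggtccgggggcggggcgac
Nfkb2, chr19:46304487-46304736, plus strand: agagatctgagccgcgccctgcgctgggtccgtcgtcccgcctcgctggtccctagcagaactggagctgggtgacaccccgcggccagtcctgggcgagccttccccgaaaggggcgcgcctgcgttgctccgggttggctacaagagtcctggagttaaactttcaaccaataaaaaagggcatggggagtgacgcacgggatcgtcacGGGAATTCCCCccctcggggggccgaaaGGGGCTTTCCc
Rel, chr11:23770970-23771219, minus strand: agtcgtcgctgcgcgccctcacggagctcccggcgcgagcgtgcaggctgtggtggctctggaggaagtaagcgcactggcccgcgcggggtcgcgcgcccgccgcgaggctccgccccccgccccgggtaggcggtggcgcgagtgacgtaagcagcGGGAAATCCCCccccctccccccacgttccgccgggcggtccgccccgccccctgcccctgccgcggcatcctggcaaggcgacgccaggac
Nfkbia, chr12:55492648-55492897, minus strand: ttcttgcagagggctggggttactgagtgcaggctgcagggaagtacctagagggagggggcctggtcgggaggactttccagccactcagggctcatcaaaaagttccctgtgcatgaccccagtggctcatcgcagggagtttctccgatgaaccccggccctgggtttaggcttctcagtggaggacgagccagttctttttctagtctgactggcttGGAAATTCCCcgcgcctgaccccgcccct

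To assess the effect of the diet without metformin, HFD was compared with CD. None of the 10 genes was called by edgeR's quasi-likelihood test at an FDR of 0.05, and 0% of the 14076 genes tested were called. At an unadjusted p under 0.05 it was 0 of 10 members, beside 4.63% of all genes, and limma-voom and DESeq2 called 0 of 10. The value farthest from 0 was that of *Nfkbie* (logFC = 0.62, SE = 0.32, FDR = 1.00), which was higher in 5 of the 6 pairs matched for labelled sex and replicate number. The other 9 lay between -0.078 (*Nfkbiz*) and 0.29 (*Rel*). *Nfkbie* was at 0.67 without the 2 libraries that went against their sex labels. The median over the 10 genes was 0.12, against -0.0047 over all genes. Beside these values, 11 of the 14 B-cell markers were higher in HFD at an unadjusted p under 0.05, with 0 of 14 called. At this threshold 2 of 6 T-cell markers tested and 1 of 9 epithelial markers were also higher, and 3 of 4 pancreatic acinar markers tested and 2 of 5 smooth muscle markers tested lower, and the part of these cell types was not tested. With log2 CPM of *Ms4a1*, the gene of the B-cell surface marker CD20, added to the model, *Nfkbie* was at 0.023 (FDR = 1.00, edgeR).

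The diet was compared under metformin in HFDmetf vs. CDmetf. Levels were lower in HFDmetf for 9 of the 10 genes, with a median of -0.31 beside 0.033 over all genes, but again 0 of 10 were called, where 0% of all genes were. An unadjusted p under 0.05 was reached by 3 of 10, all lower, beside 7.87% of all genes in either direction and 4.04% lower. These were *Rel* (logFC = -0.53, SE = 0.19, FDR = 0.599), *Nfkb2* (logFC = -0.50, SE = 0.18, FDR = 0.599) and the feedback inhibitor *Nfkbia* (logFC = -0.41, SE = 0.15, FDR = 0.599), each lower in 5 of 6 pairs. Of the other members, *Nfkbib* was at -0.37, *Relb* at -0.29 and *Bcl3* at 0.16. Of the 14 B-cell markers, 13 were lower at an unadjusted p under 0.05 (0 called). So were 4 of 6 T-cell markers tested, 1 of 9 epithelial and 1 of 3 ileal markers, whereas 3 of 4 pancreatic acinar markers tested (median 2.54), 2 of 9 macrophage and 1 of 4 adipocyte markers were higher, and the part of these cell types was not tested. With *Ms4a1* as a term in the model, the values were -0.34 for *Rel* (FDR = 0.725), -0.28 for *Nfkb2* (FDR = 0.746) and -0.33 for *Nfkbia* (FDR = 0.723), all edgeR.

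The effect of metformin on the high-fat diet was assessed as HFDmetf vs. HFD, which shares its HFDmetf libraries with the comparison just given and its HFD libraries with HFD vs. CD. *Nfkbia* was lower in HFDmetf (logFC = -0.34, SE = 0.15, FDR = 0.640) and in 5 of 6 pairs by label. It was the only member with an unadjusted p under 0.05 (1 of 10, beside 6.61% of all genes in either direction and 2.82% lower). No member was called, beside 0% of all genes. Without the 2 HFD libraries that went against their sex labels it was -0.13 (SE = 0.15, FDR = 0.993, edgeR). *Nfkbib* (logFC = -0.45, SE = 0.26, FDR = 0.640), *Rel* (logFC = -0.35, SE = 0.19, FDR = 0.640) and *Nfkb2* (logFC = -0.34, SE = 0.18, FDR = 0.640) were each lower in 4 of 6 pairs. *Nfkbib* was at -0.25, *Nfkb2* at -0.21 and *Rel* at -0.37 without those 2 libraries. The canonical subunit genes *Rela* (0.042) and *Nfkb1* (-0.041) were closest to 0 together with *Bcl3* (-0.039). B-cell markers were again lower in 13 of 14 at an unadjusted p under 0.05 (0 called), as were 2 of 6 T-cell markers tested and 1 of 9 epithelial markers. Higher at this threshold were 3 of 4 pancreatic acinar markers tested (median 3.62), 3 of 9 macrophage markers and 1 of 5 smooth muscle markers tested, and the part of these cell types was not tested. With *Ms4a1* as a term, *Nfkbia* was at -0.27 (FDR = 0.804, edgeR).

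On the control diet (CDmetf vs. CD), 8 of 10 genes were higher with metformin and 0 of 10 were called, beside 0% of all genes. An unadjusted p under 0.05 was found for 2 of 10, both higher, beside 5.14% of all genes in either direction and 2.74% higher. The CD libraries are those of HFD vs. CD, and the CDmetf libraries those of HFDmetf vs. CDmetf. *Rel* (logFC = 0.48, SE = 0.19, FDR = 0.940) was higher in 6 of 6 pairs and *Nfkbie* (logFC = 0.75, SE = 0.32, FDR = 0.940) in 5 of 6. *Nfkb2* followed (logFC = 0.33, SE = 0.18, FDR = 0.940; higher in 5 of 6 pairs), whereas *Nfkbiz* was at -0.25 and *Nfkb1* at 0.010. B-cell markers were higher in 13 of 14 at an unadjusted p under 0.05 (0 called), as were 3 of 9 macrophage markers and 1 of 6 T-cell markers tested, whereas 2 of 4 pancreatic acinar markers tested were lower, and the part of these cell types was not tested. With *Ms4a1* as a term, the values were 0.22 for *Rel* (FDR = 0.836) and 0.14 for *Nfkbie* (FDR = 0.947, edgeR).

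Whether metformin acted differently on the 2 diets was tested by the interaction, the metformin logFC on HFD minus that on CD. It was below 0 for all 10 members, with a median of -0.41 against 0.032 over all genes, and 0 of 10 were called, beside 0% of all genes. At an unadjusted p under 0.05 it was 3 of 10 (*Rel*, *Nfkb2* and *Nfkbia*), all below 0, beside 6.03% of all genes in either direction and 2.99% below 0. The values were farthest from 0 for *Nfkbie* (logFC = -0.94, SE = 0.45, FDR = 0.799), *Rel* (logFC = -0.83, SE = 0.27, FDR = 0.709), *Nfkb2* (logFC = -0.67, SE = 0.26, FDR = 0.799) and *Nfkbib* (logFC = -0.62, SE = 0.36, FDR = 0.799), and *Nfkbia* was at -0.44 (SE = 0.21, FDR = 0.799). The canonical pair *Rela* (-0.16) and *Nfkb1* (-0.051) differed from 0 by less than their standard errors. All 14 B-cell markers had an interaction below 0 at an unadjusted p under 0.05 (median -4.54, 0 called). At the same threshold 5 of 6 T-cell markers tested were below 0, and 3 of 4 adipocyte markers and 4 of 4 pancreatic acinar markers tested were above 0. The part of these cell types in the values of the members was not tested. With *Ms4a1* as a term, the interaction was -0.39 for *Rel* (FDR = 0.862), -0.18 for *Nfkb2* (FDR = 0.931) and 0.14 for *Nfkbie* (FDR = 0.966, edgeR), the last of opposite sign. With the 2 libraries that went against their sex labels left out, *Nfkbia* was at -0.22, and *Bcl3* (0.24) and *Nfkbiz* (0.12) were above 0.

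**Figure D2:**
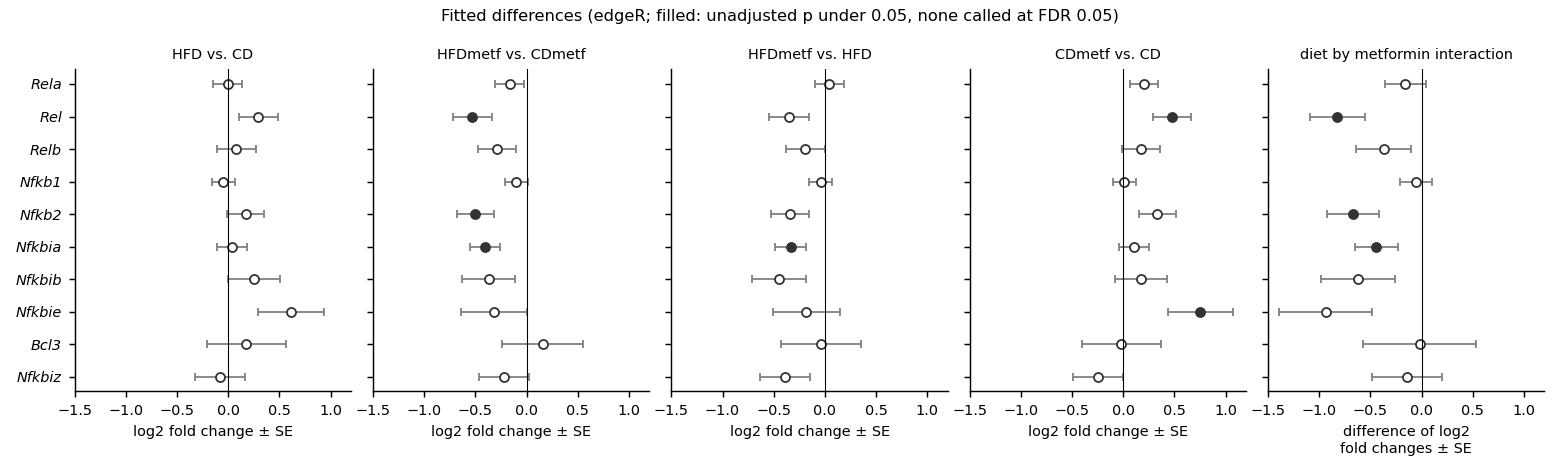
Fitted difference of each gene (horizontal axis, log2 fold change, and for the interaction the difference of 2 log2 fold changes) with its standard error, in 5 comparisons of 24 libraries. Filled points have an unadjusted p under 0.05 (3 in HFDmetf vs. CDmetf, 1 in HFDmetf vs. HFD, 2 in CDmetf vs. CD and 3 in the interaction), and no point is called at an FDR of 0.05.

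Between females and males, with the sexes as labelled, the differences lay between -0.32 (*Bcl3*) and 0.23 (*Nfkbiz*), with 5 of 10 above 0. None of the 10 was called, beside 0.0071% of all genes (1 gene), and 0 of 10 had an unadjusted p under 0.05, beside 7.27% of all genes. Without the 2 libraries that went against their labels, the values lay between -0.34 (*Bcl3*) and 0.30 (*Nfkbie*). The lowest FDR of a member was then 0.780 (*Rela*, edgeR).

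B-cell content was followed by *Ms4a1* (ENSMUSG00000024673), which ranged from 0.513 to 49.4 CPM (2 to 1430 reads). Levels were 0.513, 0.740 and 7.22 CPM in CD, 0.902, 6.92 and 49.4 CPM in CDmetf, 1.63, 2.19 and 33.6 CPM in HFD and 0.796, 1.56 and 3.98 CPM in HFDmetf (lowest, median and highest). Only 6 libraries were above 5 CPM (CD F1, CDmetf M1, CDmetf F2, CDmetf F3, HFD F1 and the library labelled HFD M2), and none of these was an HFDmetf library. In 11 libraries *Ms4a1* had at most 5 reads, so that its log2 CPM there carries large counting error. Its log2 CPM correlated with the score of the other 13 B-cell markers (r = 0.915 over 24 libraries, a description). The largest gap between neighbouring libraries was 13.3% of the range. A single gap does not show whether the libraries form separate clusters on this axis.

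With group, sex and replicate number in the model, the slope of log2 expression on log2 CPM of *Ms4a1* was above 0 for all 10 members (median 0.096, against -0.0052 over all genes), and 1 of 10 was called by edgeR, beside 1.26% of 14075 genes (positive only, 1.24%). The called gene was *Nfkbie* (slope = 0.24, SE = 0.055, FDR = 0.0240), which rose by that amount in log2 for each doubling of *Ms4a1*. In the 6 libraries with more than 5 CPM of *Ms4a1*, a limit chosen after seeing the data, *Nfkbie* was 6.66, 9.13 and 13.6 CPM (lowest, median and highest). In the other 18 it was 2.13, 4.71 and 7.80 CPM, and 2 of these libraries exceeded the lowest of the 6. This split describes the same libraries as the slope. *Nfkb2* (slope = 0.12, SE = 0.035, FDR = 0.173), *Relb* (slope = 0.11, SE = 0.038, FDR = 0.302) and *Rel* (slope = 0.11, SE = 0.039, FDR = 0.411) had the next smallest p but were not called, and 4 of 10 had an unadjusted p under 0.05 and a slope above 0, beside 4.65% of all genes. Slopes of the remaining 6 were 0.14 (*Bcl3*), 0.087 (*Nfkbiz*), 0.080 (*Nfkbib*), 0.050 (*Rela*), 0.040 (*Nfkbia*) and 0.016 (*Nfkb1*), with FDR from 0.719 to 0.944.

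The call of *Nfkbie* was not kept under all changes of libraries. It was lost without CDmetf M2 (slope 0.25), CDmetf F2 (0.22), HFD F1 (0.23), the library labelled HFD M2 (0.24) or HFDmetf M3 (0.23), each with an FDR between 0.0517 and 0.115, and without both HFD libraries that went against their sex labels (0.22, FDR = 0.0803). In the 15 libraries with at least 3000000 reads on genes the slope was smaller (0.15, SE = 0.13, FDR = 0.732, edgeR). Smaller p than for *Nfkbie* were found there for *Rela* (0.19, FDR = 0.225), *Bcl3* (0.39, FDR = 0.429), *Nfkbib* (0.21, FDR = 0.490) and *Nfkb2* (0.18, FDR = 0.617). Without the 5 libraries that stand apart the slope of *Nfkbie* was 0.27 (FDR = 0.106). Within the 18 libraries under 5 CPM of *Ms4a1* it was 0.048 (SE = 0.27, FDR = 0.974, edgeR). That slope has a standard error larger than the slope over all libraries, and 0 genes of the whole table were called in those 18, so that the fit could not show whether the relation held there.

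As a correlation of log2 CPM over the 24 libraries, computed for 14075 genes with 100000 permutations each and Benjamini-Hochberg adjustment, Pearson's r with *Ms4a1* was highest for *Nfkbie* (r = 0.708, permutation p = 7.00e-05, adjusted p = 0.00929), followed by *Rel* (r = 0.640, permutation p = 0.000720, adjusted p = 0.0545), *Nfkb2* (r = 0.583, permutation p = 0.00271, adjusted p = 0.158) and *Relb* (r = 0.525, permutation p = 0.00832, adjusted p = 0.359). It was lowest for *Nfkb1* (r = 0.190, permutation p = 0.374, adjusted p = 1.00) and between 0.274 and 0.381 for the other 5. Thus 1 of 10 was called, beside 1.29% of all genes. The permutations took no account of group, sex or replicate number, so that these p-values treat all 24 libraries as exchangeable. By Spearman's rho, 0 of 10 were called, beside 0% of all genes (*Nfkbie*, rho = 0.619, permutation p = 0.00164, adjusted p = 0.325; *Rel*, rho = 0.517, permutation p = 0.0109, adjusted p = 0.663). After leaving out the 2 libraries farthest from the median of *Ms4a1* (HFD F1 and CDmetf F2), r was 0.536 for *Nfkbie* (permutation p = 0.0109), 0.458 for *Rel* and 0.436 for *Nfkb2*, and none was called. The call of *Nfkbie* was also lost without either of these libraries and without the 5 libraries that stand apart (r = 0.696).

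Within replicate numbers 1, 2 and 3 (8 libraries each), r of *Nfkbie* was 0.725, 0.755 and 0.707, and that of *Rel* was 0.843, 0.576 and 0.593. By group of 6, r of *Nfkbie* was 0.903 in CDmetf and 0.808 in HFD, where *Ms4a1* varied widely, and 0.374 in CD and 0.177 in HFDmetf, where it was low in nearly all libraries. In the 18 libraries under 5 CPM of *Ms4a1*, r was 0.0996 for *Nfkbie*, 0.0587 for *Rel* and -0.249 for *Nfkb2*. *Nfkb1* was at -0.579 there, opposite in sign to its value over all 24. These values within subsets are descriptions.

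**Figure D3:**
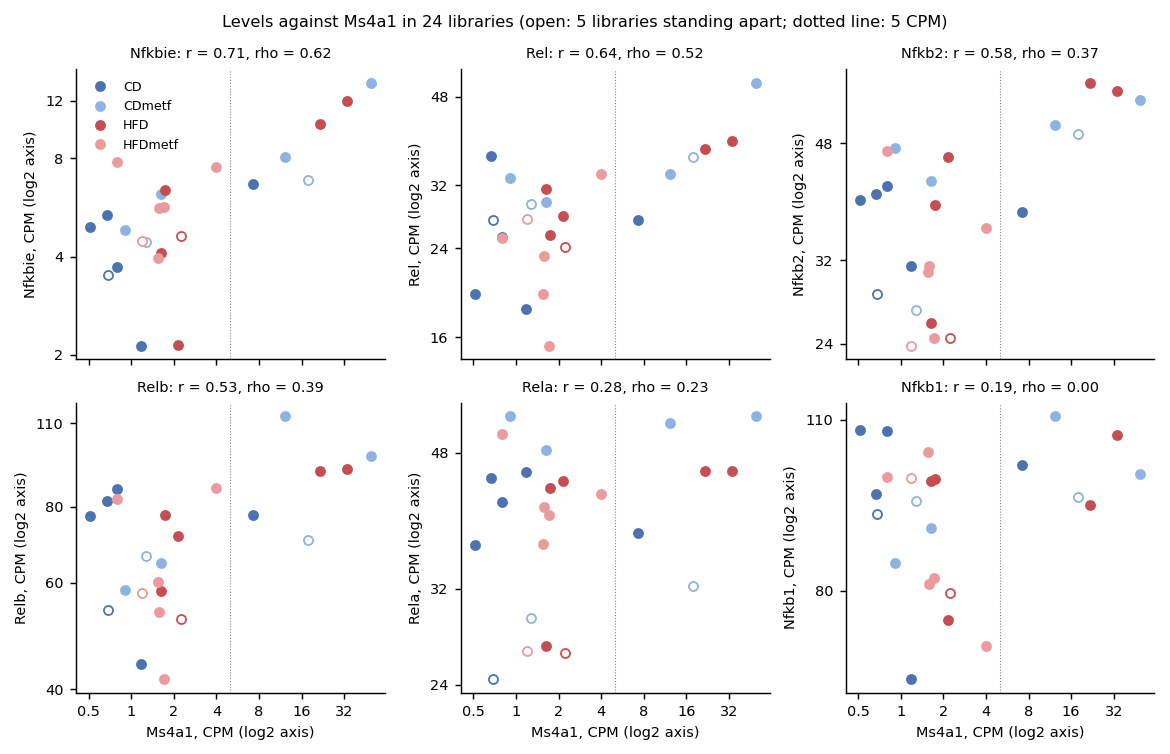
CPM of 6 of the genes (vertical, log2 axis) against CPM of *Ms4a1* (horizontal, log2 axis), 1 point per library, colored by group, with open points for the 5 libraries that stand apart and a dotted line at 5 CPM. To the right of the line, which was chosen after seeing the data, lie 6 libraries. In these *Nfkbie* is at least 6.66 CPM, a level that 2 of the 18 others exceed. For *Rel* and for *Nfkb2*, 8 of the 18 exceed the lowest of the 6.

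The 5 libraries that stand apart on the second principal component, which was computed from all genes including the 10, are given as a description. *Bcl3* was 10.4, 12.3 and 26.5 CPM in them (lowest, median and highest) and 25.3, 32.5 and 74.4 CPM in the other 19, a difference of mean log2 CPM of -1.33 that was lower for 0.959% of all genes. *Nfkbib* differed by -0.81 (13.4 against 24.5 CPM in the median) and *Rela* by -0.64 (26.6 against 44.1 CPM). *Rel* (0.038) and *Nfkb1* (-0.010) were at about the same level in both. No member was without overlap between the 5 and the 19, beside 2.0% of all genes that were lower and 3.28% that were higher without overlap. The 5 libraries had 18233728 to 40384234 reads on genes, and 17.6 to 20.3% of their reads lay outside genes, against 17.1 to 41.2% in the 19, and the part of either in these differences was not tested. They belong to all 4 groups (1 each in CD, HFD and HFDmetf and 2 in CDmetf), and no member was called in a group comparison with or without them.

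**Figure D4:**
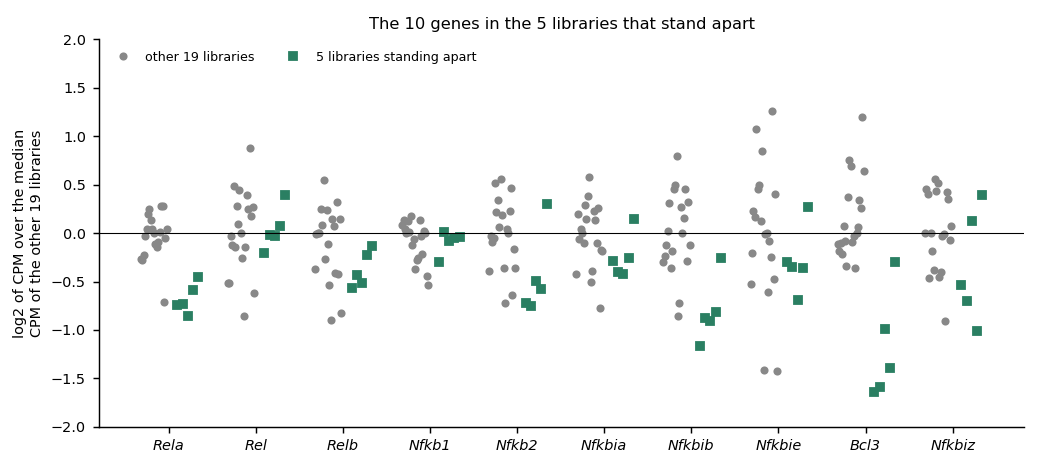
For each gene, the log2 ratio of the CPM of each library to the median CPM of the 19 other libraries (vertical axis), with gray circles for the 19 and green squares for the 5 libraries that stand apart. The squares lie below most circles for *Rela*, *Nfkbib* and *Bcl3* and among them for *Rel* and *Nfkb1*.

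The genes whose log2 CPM was most like that of each member over the 24 libraries were taken from 9104 genes with a mean of at least 10 CPM, by Pearson's r as a description of libraries that share depth and composition. For the subunits these were *Tjp3* (0.915), *Prrc2a* (0.910) and *Zmiz2* (0.907) for *Rela*, *B4galt1* (0.805), *Slc46a3* (0.789) and *Insig2* (0.769) for *Rel* and *Dnm2* (0.852) and *Nucb1* (0.843) for *Relb*. For the precursors they were *Itgb5* (0.753), *Btg2* (0.749) and *Arel1* (0.748) for *Nfkb1* and *Grk2* (0.912), *Flii* (0.831) and *Tprn* (0.825) for *Nfkb2*. Among the inhibitors, *Nfkbia* was most like *Tle3* (0.790), *Gm7694* (0.777) and *Xylt2* (0.776), *Nfkbib* like *Misp* (0.917), *Prr13* (0.907) and *Epn1* (0.879) and *Nfkbie* like *Fmnl3* (0.852), *Clu* (0.839) and *Wdfy4* (0.798). For the atypical genes they were *Mbd6* (0.933), *Cc2d1a* (0.912) and *Ciz1* (0.911) for *Bcl3* and *Etv3* (0.851), *Barx2* (0.845) and *Mov10* (0.811) for *Nfkbiz*. Within the 10, the highest r was between *Nfkb2* and *Nfkbia* (0.799), followed by *Nfkbib* and *Bcl3* (0.779), *Relb* and *Nfkb2* (0.769) and *Rela* and *Nfkb2* (0.738).

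Other genes of the pathway were followed in 5 lists, and none of the 61 tested was called in a group comparison or between the sexes. Over all genes, 0% were called in each group comparison and 0.0071% between the sexes. The counts called on *Ms4a1* in these lists stand beside 1.26% of all 14075 genes. Of 12 ligands, 5 were tested. *Ltb*, encoding the lymphotoxin beta that maintains lymphoid follicles, had the smallest p (interaction, -2.94, SE = 0.98, FDR = 0.709), and *Tnfsf13b*, encoding the B-cell survival factor BAFF, the next (HFD vs. CD, 0.62, SE = 0.31, FDR = 1.00). On *Ms4a1*, 1 of 5 was called, *Ltb* (slope 0.61, SE = 0.10, FDR = 0.00177), whereas *Tnfsf13b* (0.018) and *Il33* (-0.079), an alarmin of stromal and barrier cells, were near 0. *Ltb* had 0 reads in at least 1 library and reached 15.7 CPM.

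Of 15 receptors, 13 were tested. The smallest p were those of the interaction for 2 receptors of BAFF found on B cells, *Tnfrsf13c* (-4.78, SE = 1.31, FDR = 0.603) and *Tnfrsf13b* (-1.54, SE = 0.50, FDR = 0.709). On *Ms4a1*, 3 of 13 were called, all positive, beside 1.24% of all genes called with a positive slope. These were *Tnfrsf13c* (slope 0.98, SE = 0.10, FDR = 6.37e-06), the sensor of bacterial DNA *Tlr9* (0.42, SE = 0.063, FDR = 0.000542) and *Tnfrsf13b* (0.25, SE = 0.063, FDR = 0.0486). The lowest slope was that of *Tlr4*, the receptor of lipopolysaccharide (-0.16, SE = 0.086, FDR = 0.689). All 20 kinases and adaptors were tested, and 2 were called on *Ms4a1*, among them *Prkcb* (0.38, SE = 0.062, FDR = 0.00130), which encodes a kinase that acts downstream of the B-cell antigen receptor. The kinase subunit gene *Chuk* had the lowest slope (-0.075, SE = 0.052, FDR = 0.798). In group comparisons the smallest p of this list were those of *Tab2* (HFDmetf vs. CDmetf, -0.22, SE = 0.085, FDR = 0.599) and *Prkcb* (CDmetf vs. CD, 1.06, SE = 0.43, FDR = 0.940).

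Of 8 other brakes on the pathway, 7 were tested, and 0 were called on *Ms4a1*, where *Nfkbid* (0.21, SE = 0.10, FDR = 0.628) and the deubiquitinase gene *Tnfaip3* (0.10, SE = 0.040, FDR = 0.462) had the largest slopes and *Otulin* (0.0091, SE = 0.033, FDR = 0.977) the smallest. In group comparisons *Otulin* (CDmetf vs. CD, 0.43, SE = 0.14, FDR = 0.940) and *Cyld* (HFDmetf vs. CDmetf, -0.26, SE = 0.11, FDR = 0.607) had the smallest p. Of 29 target genes, 16 were tested, and 3 were called on *Ms4a1*: *Cxcl13* (0.65, SE = 0.11, FDR = 0.00130), the chemokine that draws B cells into follicles, *Madcam1* (0.39, SE = 0.077, FDR = 0.00690), the vascular adhesion molecule of gut lymphoid tissue, and *Cd83* (0.33, SE = 0.068, FDR = 0.0123), a surface protein of activated lymphoid and dendritic cells. *Mmp9* had the lowest slope (-0.19, SE = 0.12, FDR = 0.729). The smallest p in group comparisons were those of *Cxcl13* (interaction, -3.37, SE = 1.03, FDR = 0.709) and *Vcam1* (CDmetf vs. CD, 0.73, SE = 0.23, FDR = 0.940). The median slopes were 0.00075 for ligands, 0.015 for receptors, 0.016 for kinases and adaptors, 0.051 for other brakes and 0.048 for target genes, beside -0.0052 for all genes and 0.87 for the 13 other B-cell markers, of which 13 were called.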

How the data were processed

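RNA-Seq libraries (rRNA depletion, directional MGI kit, 1 per animal) of 24 mice were analysed. The authors deposited raw read counts per gene, made by trimming with Trimmomatic 0.39 and mapping to GRCm38 and counting with STAR 2.5.3a. Neither the strand setting nor the annotation release was given in the sources used here. Depth was 1829690 to 40606442 reads on genes per library, and precision is limited by counting error and the spread between animals. Rows that name no gene were left out, of which reads outside genes were 17.1 to 41.2% of the uniquely mapped reads. The table held 0 columns of other samples.

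Groups, sex and replicate number were taken from the labels. Genes were filtered with filterByExpr (14076 of 55536 kept), scaled by TMM and fitted with edgeR 4.0.16 (R 4.3.3) by quasi-likelihood, with terms for group, replicate number and sex, leaving 17 residual degrees of freedom, and with a Benjamini-Hochberg FDR of 0.05 over all genes tested. The logFC is on the log2 scale, SE is the logFC divided by the square root of F, and log2 CPM used a prior count of 1. The slope on *Ms4a1* was a further term in this model (14075 genes). Correlations used 100000 two-sided permutations over all libraries, without regard to group, sex or replicate number. The scripts were tested on simulated data. The replicate number was kept as a block because the study's own model held the sequencing block. Whether the number is that block is not stated. Libraries of different groups correlated by 0.130 in their deviations from group means when they shared a number and by -0.0642 when they did not. Only 23 of 36 pairs of the same labelled sex and number were over 0.1.

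Group comparison values were given in full where the unadjusted p was under 0.1. Named genes were the 10 members and *Ms4a1*, the 3 genes most like each member, and from each of 5 pathway lists (84 genes in all) the 2 with the smallest p between groups, the 2 largest and the smallest slope, and any gene called where 5 or fewer were, except 2 genes that are not reported here. The members and lists were chosen with earlier results of these data known. Alternatives were another scaling, filter, tool or covariate, and leaving out libraries (limma 3.58.1 for limma-voom, DESeq2 1.42.0). Gene coordinates and exon lengths are those of a GENCODE annotation of GRCm38. The exon length of a gene covers all its annotated exons, with overlapping bases counted once.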

Additional observations from a re-analysis of the deposited data

Results flagged for a closer look

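In each group of 6 libraries, the highest or lowest value was set against the others by Dixon's test, which chance alone passes in about 1 in 20 groups. Over 10 members and 4 groups, 40 such tests were made, and 2 passed, the number that this rate gives. Of the 10 members, *Rel* stood out in CDmetf F2, where it was 51.2 CPM against 29.3 to 36.5 CPM in the other CDmetf libraries, and *Bcl3* in HFDmetf M3, where it was 74.4 CPM against 10.8 to 31.9 CPM in the other HFDmetf libraries. *Ms4a1* stood out in 3 groups, with 7.22 CPM in CD F1 (others 0.513 to 1.18 CPM), 49.4 CPM in CDmetf F2 (others 0.902 to 17.9 CPM) and 3.98 CPM in HFDmetf M3 (others 0.796 to 1.71 CPM). CDmetf F2, the library with the highest *Ms4a1*, also held the highest *Rel* and the highest *Nfkbie* (13.6 CPM) of all 24, and HFDmetf M3 held the highest *Ms4a1* of its group beside the highest *Bcl3* of all 24.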

How the results depend on the processing

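In the 5 group comparisons and between the sexes, 0 of 10 members were called under every alternative, with a lowest FDR of 0.267. Over all genes, edgeR called 0 in each group comparison, whereas DESeq2 called 13 in HFD vs. CD, 4 in CDmetf vs. CD and 4 in the interaction, and edgeR without a scaling factor called 20 in the interaction. Of the 60 values of the members, 31 changed sign under at least 1 alternative, 5 of them although larger than their standard error. Without a scaling factor the median of all genes reached 0.30 (CDmetf vs. CD), and the members above that median numbered 8 there, as in the TMM fit. The interaction of *Nfkbie* was 0.14 with *Ms4a1* as a term. The fit with no replicate block changed no call of a member (*Nfkbie*, slope FDR = 0.0119).

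The count of 1 member called on the *Ms4a1* slope was 0 without a scaling factor, with at least 10 counts in every library (*Nfkbie* then not tested), with the 2 HFD libraries that went against their sex labels left out, in the 15 libraries with at least 3000000 reads on genes, and, chosen after seeing the data, without the 5 libraries that stand apart or under 5 CPM of *Ms4a1*. It was 2 with *Ms4a1* alone (*Nfkbie* and *Rel*) and 0 to 1 with single libraries left out. The slope calls over all genes, 177, were 89 without a scaling factor, 47 with at least 10 counts in every library, 39 in the 15 deeper libraries, 111 without the 5 libraries that stand apart and 0 under 5 CPM. Slope calls over all genes were 109 to 218 with single libraries left out and 0 to 250 under the other alternatives. The count by correlation was 2 with a prior count of 5, with the score of 13 other B-cell markers and in the 15 deeper libraries. It was 0 with at least 10 counts in every library, without the 2 farthest libraries, without the 5 that stand apart and under 5 CPM, and 0 to 2 with single libraries left out. The correlation calls over all genes, 181, were 77 to 192 with single libraries left out and 0 to 291 under the other alternatives.

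Slopes that turned negative were those of *Nfkb1* (-0.069 in the 15 deeper libraries, -0.23 under 5 CPM) and *Rel* (-0.010 under 5 CPM). Correlations under 5 CPM were -0.016 for *Rela*, -0.129 for *Relb*, -0.579 for *Nfkb1*, -0.249 for *Nfkb2*, -0.159 for *Nfkbia* and -0.053 for *Nfkbiz*. The cause of these changes was not tested. With as few as 5 reads in a library, *Nfkbie* is the member most limited by depth.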
